A study of Mus musculus with 8 samples.

Results

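The tuft cell genes examined here were Dclk1, Pou2f3, Trpm5, Il25, Gfi1b, Avil, Ptgs1, Alox5 and Sucnr1, taken by name as 9 of the 21887 protein-coding genes in a RefSeq table for the mouse genome GRCm38. For each gene the locus was the gene body with 50 kb on each side. The data were peak lists from CUT&Tag, a method that tethers a transposase to an antibody-bound histone mark so that nearby DNA is cut, tagged and sequenced. Acetylation of histone H3 at lysine 27 (H3K27ac), found at active enhancers and promoters, and at lysine 9 (H3K9ac), found mostly at active promoters, was measured in small intestinal crypts. All samples came from male C57BL/6J mice aged 9 weeks, and the crypts were dissociated with trypsin to single cells labelled as small intestinal epithelial cells. Each mark had 4 groups of 1 sample: Fed without tetracycline (-Tetra), Fast without tetracycline (-Tetra), Fed with tetracycline (+Tetra) and Fast with tetracycline (+Tetra), where Fast means 24 h without food and tetracycline was given for 21 days. Every sample had 2 peak lists, so there were 8 lists per mark and 16 in all. The labels do not say whether lists 1 and 2 of a sample came from different mice, and p-values then measure only the spread between these lists, which may be technical.

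Tuft cells are rare chemosensory cells of the intestinal epithelium that arise from crypt stem cells. They sense luminal signals such as succinate through a G-protein cascade related to that of taste cells, which opens the cation channel TRPM5. They release interleukin-25, acetylcholine and eicosanoids. Interleukin-25 acts on group 2 innate lymphoid cells, and the interleukin-13 these cells make increases the number of tuft and goblet cells in turn. The transcription factor POU2F3 is needed for tuft cells to form.

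H3K27ac lists held 32392 to 68545 peaks and H3K9ac lists 17249 to 99050, and their sequencing depth is unknown. Some lists stood apart in having many peaks exactly 200 bp wide: for H3K27ac, list 1 of Fast without tetracycline (11.8% of peaks), and for H3K9ac, list 1 of the same group (17.2%) and both lists of Fast with tetracycline (20.3% and 31.2%). All 4 were Fast lists, and no Fed list had more than 1.73%. The labelled cell type was checked against 10 epithelial genes (Epcam, Cdh1, Vil1, Krt8, Krt18, Krt20, Cdx1, Cdx2, Hnf4a and Cldn7). A gene counted as marked in a list if any peak came within 1 kb of an end of its annotated body. All 10 were marked in every H3K27ac list, and 8 to 10 in each H3K9ac list.

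The ends of the tuft cell genes were almost free of peaks in the same lists. For H3K27ac, 3 of the 72 pairs of a tuft cell gene and a list were marked (4.17%), against 47.6% of such pairs over all protein-coding genes. For H3K9ac, 10 of 72 pairs were marked (13.9%), against 46.9%. Dclk1, Pou2f3, Il25, Gfi1b, Avil and Alox5 were marked in no H3K27ac list, a state shared by 39.4% of all genes. Pou2f3, Ptgs1, Alox5 and Sucnr1 were marked in no H3K9ac list, a state shared by 25.2%. Pou2f3 and Alox5 were marked in none of the 16 lists, as were 4907 other genes (22.4% for the same state). No tuft cell gene was marked in all 8 lists of either mark, while 33.6% of all genes were for H3K27ac and 21.1% for H3K9ac. In bulk crypt chromatin, fewer cells of a type and less acetylation per cell cannot be told apart.

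**Figure D1:**
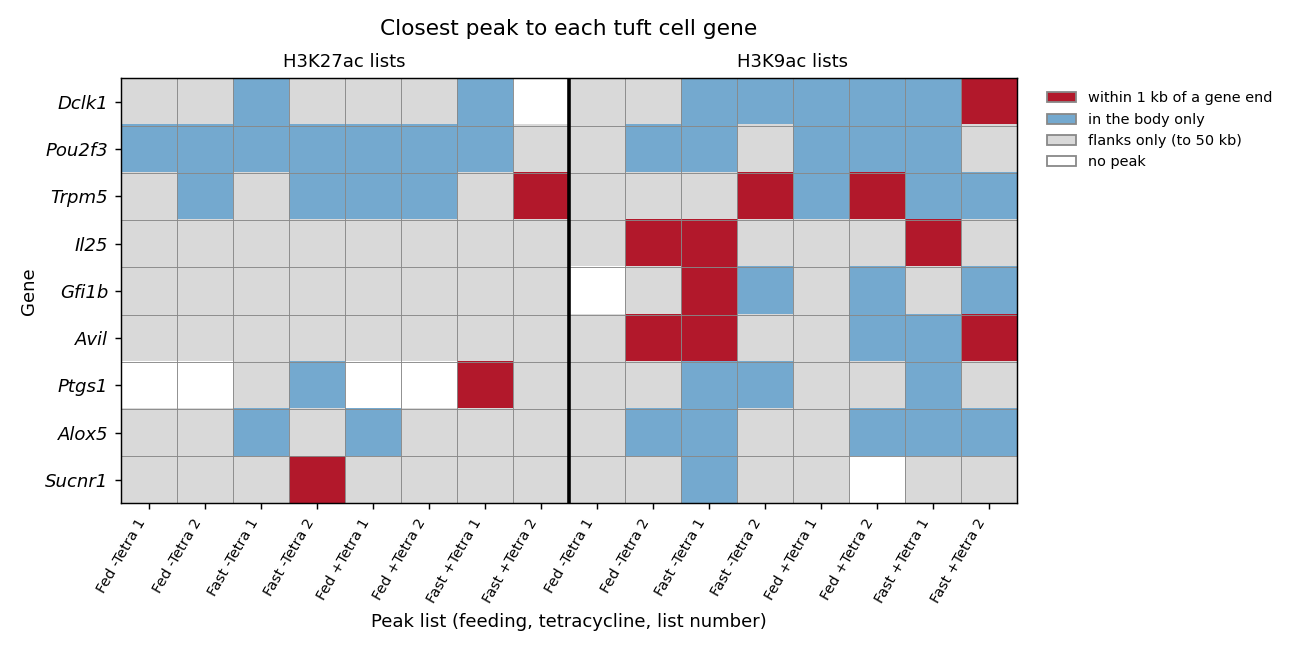
Closest peak to each of the 9 tuft cell genes (rows) in each of the 16 lists (columns, by mark, feeding, tetracycline and list number). Colour gives the class: within 1 kb of a gene end, in the body only, in the 50 kb flanks only, or no peak. Gene-end peaks appear in 3 of 72 H3K27ac cells and 10 of 72 H3K9ac cells, and most cells show flank peaks only.

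RefSeq promoter entries for GRCm38.p6 matched 7 of the 9 genes, with 8 start sites, because Dclk1 has 2. Pou2f3 and Il25 had no entry. The 250 bases before each start were searched on both strands for the octamer bound by POU proteins, ATGCAAAT, and for a motif of the GFI1 family, AATCACNGC, since POU2F3 and GFI1B are members of these families. The octamer was found before Sucnr1, with its first base 48 bases before the start. Of 32851 promoter entries, 1.6% hold it in the same window. The GFI motif was found before Avil on the opposite strand, beginning 51 bases before the start, and 0.776% of entries hold it. The pair of motifs has no overlap in sequence, and a match describes letters only.

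The promoters of Sucnr1 and Avil are shown because they hold a motif. Both Dclk1 starts are shown because a peak near the upstream one is described further on. Trpm5, Gfi1b and Ptgs1 also have peaks near their starts described further on, but their promoters are not shown. Sequences run 5′ to 3′ on the plus strand in GRCm38.p6 and end at the base before the start site. Capitals mark the octamer in Sucnr1 (chr3:60081619-60081868) and the GFI motif in Avil (chr10:127000459-127000708). Neither motif is in the Dclk1 windows (chr3:55242114-55242363 for the upstream start and chr3:55461478-55461727 for the internal start).
Sucnr1: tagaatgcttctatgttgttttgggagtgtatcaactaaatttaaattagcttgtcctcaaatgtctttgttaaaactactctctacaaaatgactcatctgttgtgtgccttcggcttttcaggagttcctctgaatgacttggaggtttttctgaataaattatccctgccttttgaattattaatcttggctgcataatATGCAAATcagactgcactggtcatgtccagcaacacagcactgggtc
Avil: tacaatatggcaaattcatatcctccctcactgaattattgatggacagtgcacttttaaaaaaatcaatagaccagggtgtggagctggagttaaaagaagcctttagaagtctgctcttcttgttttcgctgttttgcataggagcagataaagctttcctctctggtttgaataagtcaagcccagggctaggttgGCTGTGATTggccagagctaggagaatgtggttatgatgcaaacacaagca
Dclk1, upstream start: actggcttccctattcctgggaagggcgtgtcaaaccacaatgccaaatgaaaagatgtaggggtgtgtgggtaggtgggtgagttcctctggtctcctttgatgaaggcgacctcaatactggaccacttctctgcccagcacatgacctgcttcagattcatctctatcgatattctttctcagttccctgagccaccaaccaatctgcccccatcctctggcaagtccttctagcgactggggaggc
Dclk1, internal start: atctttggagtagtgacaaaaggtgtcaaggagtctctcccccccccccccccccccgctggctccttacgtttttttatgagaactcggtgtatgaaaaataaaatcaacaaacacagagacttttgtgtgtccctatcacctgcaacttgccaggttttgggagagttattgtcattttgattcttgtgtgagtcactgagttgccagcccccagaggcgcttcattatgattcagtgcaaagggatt
Sucnr1 and Avil each have 1 CpG in this window, with 38.0% and 42.0% GC, and the Dclk1 windows have 4 CpG each. The median over all entries was 6 CpG and 52.4% GC.

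Among the transcription factors, Pou2f3 (chromosome 9, 43123927 to 43205755), the factor tuft cells require, had no peak at its ends. Its closest H3K27ac peak to an end lay 3.0 to 17.8 kb away over the 8 lists. A region inside the gene body (chr9:43149722-43151625) held H3K27ac in 7 of 8 lists, absent from Fast 2 with tetracycline. Its median score rank within a list was 67.9%, where 100% is the highest-scoring peak. H3K9ac reached it in 2 lists. A broader H3K27ac region, 6734 bp wide, lay 18.8 kb beyond the high-coordinate end of Pou2f3 and inside the neighbouring gene Oaf (chr9:43224540-43231273). It was found in all 8 H3K27ac lists with a median rank of 98.2%, and in 5 H3K9ac lists. Peaks covered 5721 to 16571 bp of the Pou2f3 locus in H3K27ac lists (median 9274 bp), of which 61.3% was distal flank, meaning outside the gene body and over 1 kb from every annotated protein-coding gene end.

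Gfi1b (chromosome 2, 28609450 to 28621982, minus strand) encodes a transcriptional repressor that tuft cells share with blood cell lineages. No H3K27ac peak lay in its body or at its ends. All 8 H3K27ac lists held a region 6.79 kb upstream of its start site (chr2:28628772-28631055, median rank 84.4%) and another 9.83 kb upstream (chr2:28631816-28633715, median rank 66.9%). The nearer region held H3K9ac in 0 of 8 lists and the farther in 3. The next constant region, 18.6 kb away, lay at an end of Tsc1 and held H3K9ac in 7 lists. A single H3K9ac peak marked Gfi1b itself, 780 bp from the start site, in Fast 1 without tetracycline.

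Sucnr1 (chromosome 3, 60081869 to 60087566) encodes the succinate receptor. It was marked by 1 H3K27ac peak of 438 bp, 569 bp upstream of the start site and so outside the sequence printed above, in Fast 2 without tetracycline. No other H3K27ac list had a peak at an end of Sucnr1. Beyond the gene, 3 regions held H3K27ac in all 8 lists, at 6.44, 9.08 and 23.2 kb from its end (chr3:60094002-60096501, chr3:60096645-60099428 and chr3:60110772-60112478). The middle one had a median rank of 91.3%. H3K9ac was found at these in 1, 2 and 0 lists. The annotation places no protein-coding gene over any of the 3.

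Trpm5 (chromosome 7, 143071529 to 143094642, minus strand), the channel of the signalling cascade, had the most covered H3K27ac locus of the 9. Peaks covered 12.9% of its window on average, and 91.6% of all genes had less. Most of it lay with the neighbours Cd81, Tssc4 and Kcnq1. All 8 H3K27ac lists held a peak near the low-coordinate end, the end opposite the start site, in a region that also lies within 1 kb of ends of Cd81 and Tssc4 (chr7:143068193-143070751). Its distance from the Trpm5 end was 778 bp in Fast 2 with tetracycline, inside the 1 kb limit, and 1453 to 1835 bp in the other 7 lists, just outside it. Near the start site of Trpm5 the closest H3K27ac peak was 5321 to 12141 bp away. H3K9ac marked Trpm5 in 2 lists, and 1 peak of 509 bp, in Fast 2 without tetracycline, lay 181 bp from the start site.

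Il25 (chromosome 14, 54932695 to 54935837) encodes the cytokine through which tuft cells signal to lymphoid cells. Its window holds 7 other protein-coding genes. No H3K27ac list had a peak in its body or at its ends, and 98.1% of the H3K27ac length in the window lay at ends of other genes, with constant regions at Bcl2l2 and Pabpn1. The closest H3K27ac peak was 7.03 kb away in 1 list, Fast 1 without tetracycline, and the median over the lists was 37.4 kb. H3K9ac marked Il25 in 3 lists with 3 different peaks near its high-coordinate end: Fed 2 without tetracycline (542 bp wide, rank 0.255%), Fast 1 without tetracycline (200 bp, 68.2%) and Fast 1 with tetracycline (441 bp, 38.3%). None of the 3 overlapped another.

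The eicosanoid enzymes were Ptgs1, the constitutive cyclooxygenase, and Alox5, the 5-lipoxygenase of leukotriene synthesis. Both are also expressed by blood cells. Alox5 (chromosome 6, 116410071 to 116461178, minus strand) had no gene-end peak in any list. A pair of H3K27ac regions in all 8 lists lay 23.2 and 38.1 kb beyond its low-coordinate end, inside Marchf8 (chr6:116385597-116386855 and chr6:116369394-116371946), with median ranks of 59.7% and 87.0%. In the body of Alox5, H3K27ac peaks were found in 2 lists. They were Fast 1 without tetracycline (chr6:116425039-116425305, rank 46.0%) and Fed 1 with tetracycline (chr6:116430061-116430661, rank 15.3%). Ptgs1 (chromosome 2, 36216742 to 36258593) had no H3K27ac region in all 8 lists. Its 9 H3K27ac peaks fell into 7 regions, 6 of them found in a single list.

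Dclk1 (chromosome 3, 55242303 to 55539068), a kinase with a microtubule-binding part and a widely used tuft cell marker, and Avil (chromosome 10, 127000065 to 127020994), an actin-binding protein of the villin family, complete the set. Dclk1 had no H3K27ac peak at its ends, and 0.218% of its window was covered on average. The H3K27ac region found most often lay 14.7 kb outside its low-coordinate end (chr3:55226604-55227609), in 6 lists, all 4 Fed and 2 Fast. The body of Dclk1 held 6 H3K27ac peaks, 5 in Fast 1 without and 1 in Fast 1 with tetracycline. The highest-ranked (chr3:55361344-55361543, 200 bp, rank 69.1%) was in Fast 1 without tetracycline, a list rich in 200 bp peaks. A single H3K9ac peak of 274 bp lay 258 bp from the upstream start, in Fast 2 with tetracycline, and none lay within 1 kb of the internal start. Avil had its start site covered by an H3K9ac peak in 2 lists, Fast 1 without tetracycline (340 bp, rank 9.16%) and Fast 2 with tetracycline (495 bp, rank 15.2%), both peaks overlapping the window printed above. Its nearest H3K27ac region was 8.99 kb away, inside Ctdsp2 (chr10:126990094-126991076), in 5 lists.

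Over the 9 loci, H3K27ac peaks sat mainly in the flanks, which also make up most of each window except that of Dclk1. Gene bodies were 3.14 to 81.8 kb long, and 297 kb for Dclk1, beside 50 kb of flank on each side. Neither the split by position nor the region counts below were set against all genes. Of 383 H3K27ac peaks, 3 lay at an end of the tuft cell gene, 28 in its body, 124 in the flank at an end of another gene and 228 in distal flank. Of 417 H3K9ac peaks, the numbers were 12, 75, 127 and 203. By length, 58.1% of H3K27ac and 40.0% of H3K9ac was distal flank. Merging peaks that overlap gave 99 H3K27ac regions, of which 19 were in all 8 lists and 53 in 1 list. Of the 19, 1 was the Trpm5 end region, 8 lay at an end of another gene and 10 were distal. The 8 held H3K9ac in a median of 7 lists (4 to 8), and the 10 distal ones in a median of 3 (0 to 5). H3K9ac gave 247 regions, 190 of them in 1 list, and 1, at the end of Bcl2l2 in the Il25 window, in all 8.

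**Figure D2:**
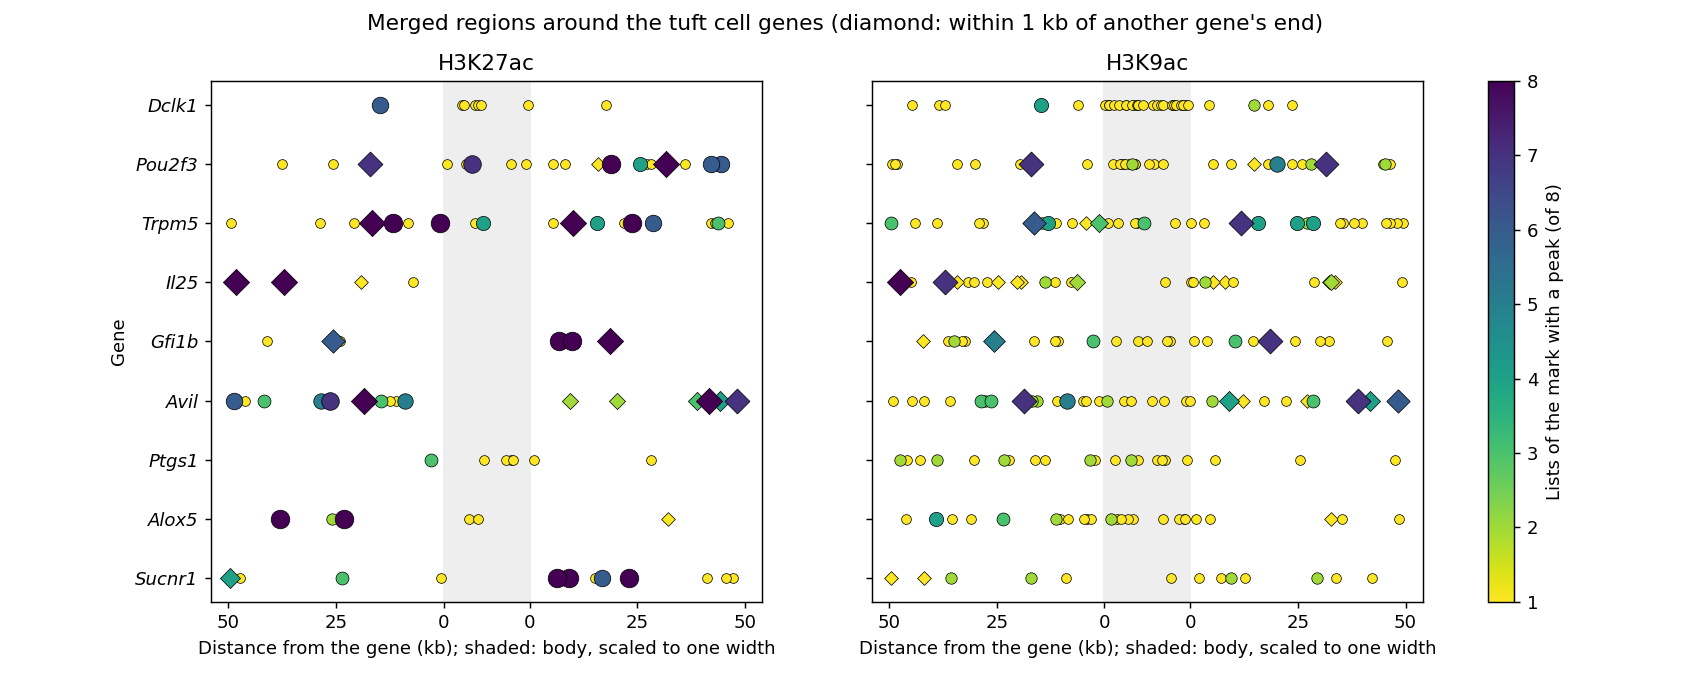
Merged regions of each mark by distance from the tuft cell gene (kb, on both sides of the gene) for each of the 9 loci, with gene bodies shaded and scaled to one width. Colour and size give the number of lists that hold a region, and diamonds lie within 1 kb of another gene's end. The 19 H3K27ac regions in all 8 lists include none in a gene body; 10 are distal, among them those beyond Gfi1b, Sucnr1 and Pou2f3.

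The question of fasting was first put to the gene ends. All 3 H3K27ac gene-end marks were in Fast lists (Trpm5, Ptgs1 and Sucnr1, each in a different list). Per list, 0 and 0 of the 9 genes were marked in Fed and 0 and 1 in Fast without tetracycline, and 0 and 0 in Fed and 1 and 1 in Fast with it. For H3K9ac, 0 and 2 were marked in Fed and 3 and 1 in Fast without tetracycline, and 0 and 1 in Fed and 1 and 2 in Fast with it. Fed and Fast lists thus overlapped in number for both marks. No tuft cell gene was marked in all 4 Fast lists and no Fed list, a state met by 0.0959% of all genes for H3K27ac and 0.0777% for H3K9ac. None was marked in all 4 Fed lists and no Fast list either (0.0137% and 0.0411%). Without the 4 lists rich in 200 bp peaks, the mean number marked per list was 0.43 for H3K27ac and 0.8 for H3K9ac, against 0.38 and 1.25 with them. The mean over Fast lists minus that over Fed lists was 0.75 genes for H3K27ac and 1.0 for H3K9ac with those lists. Without them it was 1.0 for H3K27ac. For H3K9ac their removal leaves no Fast list with tetracycline and 1 Fast list without it, which had 1 gene marked against 0 and 2 in the Fed lists of that state.

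**Figure D3:**
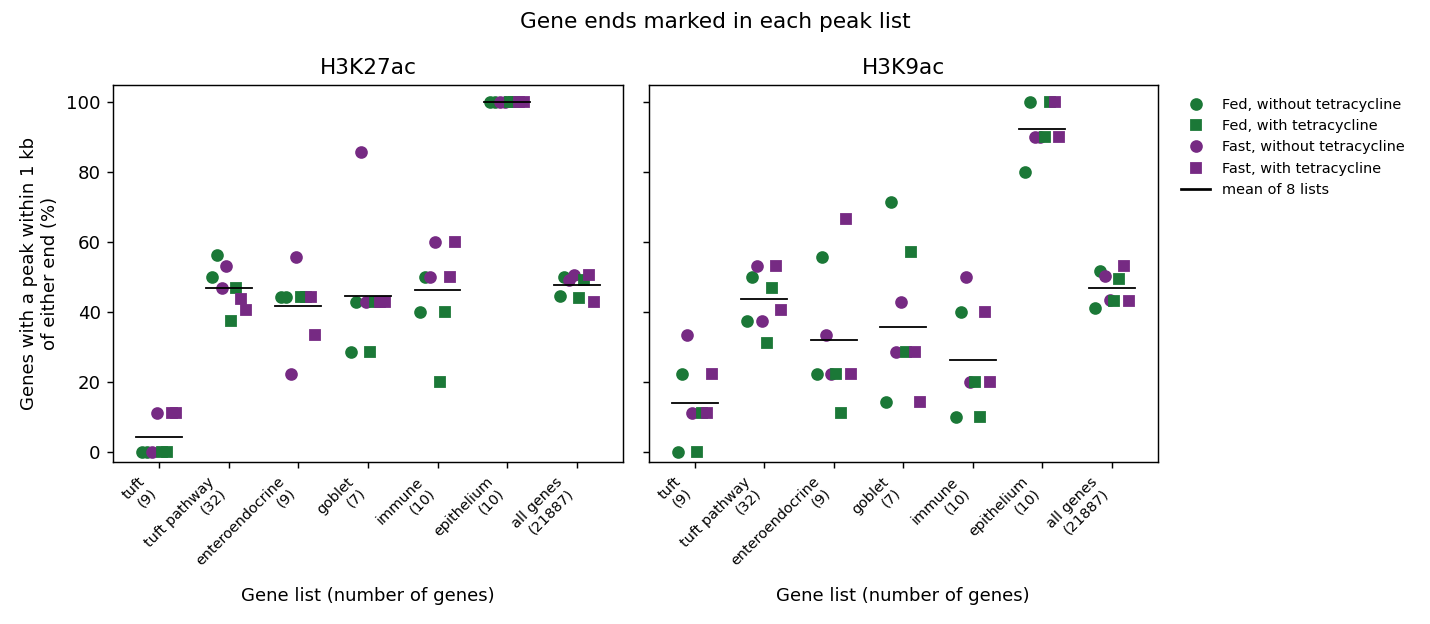
Percent of genes with a peak within 1 kb of either end in each list, for the 9 tuft cell genes, 32 tuft pathway genes, other marker lists and all genes; one point per list, black bars are means of 8 lists. Tuft cell genes lie at 0 to 1 of 9 for H3K27ac and 0 to 3 of 9 for H3K9ac, below the 42.9 to 50.7% and 41.1 to 53.2% of all genes.

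The length covered by peaks in each locus separated Fast from Fed lists for 1 gene per mark. For H3K27ac this was Ptgs1. No base of its window was covered in any of the 4 Fed lists. In Fast lists 1 and 2 the covered length was 1056 and 1488 bp without tetracycline and 2308 and 793 bp with it. Every Fast list was thus above every Fed list, as for 5.29% of all genes. On the log2 scale with 1 kb added to each length, the difference was 1.23 over both states, 1.18 without and 1.28 with tetracycline (exact permutation p = 0.0556, the smallest the design allows and reached by 8.77% of all genes, and 0.633 after Benjamini-Hochberg adjustment over all genes). Because the Fed value is 0, the size depends on the added length and was 3.82 with 100 bp added. With lists trimmed to equal numbers of their highest-scoring peaks it was 0.26 (exact permutation p = 1.0), and the lists no longer separated. With peaks above the median score of each list, Ptgs1 did not separate and Sucnr1 did, as 4.32% of all genes did.

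The Ptgs1 peaks were scattered. The region found most often, 2.89 kb outside the low-coordinate end (chr2:36212777-36213855), was in 3 Fast lists at ranks of 5.21% to 70.2%. The others were in the body, 940 bp beyond the high-coordinate end or 28.2 kb away, each in 1 list. The RefSeq start of Ptgs1 lies inside the locus, at 36230426, and H3K9ac peaks lay 602 and 893 bp from it in Fast lists 1 and 2 without tetracycline. H3K9ac coverage of the locus did not separate the lists: 549 and 2414 bp in Fed and 2429 and 1889 bp in Fast without tetracycline, and 396 and 857 bp in Fed and 1577 and 466 bp in Fast with it. Of 10 immune markers, 2 to 5 were marked for H3K27ac in Fed lists and 5 to 6 in Fast lists. Ptprc, the pan-leukocyte marker, was marked in 4 Fast and 0 Fed lists, the T cell gene Cd8a and the myeloid gene Itgam in 4 Fast and 2 Fed lists each, and Lyz2 in 1 Fast list. Cd79a was marked in all 8 lists and Cd14 in 3 of each feeding state. The T cell gene Cd3e went the other way, with 2 Fast and 4 Fed lists, and the macrophage genes Csf1r and Adgre1 were marked in none. Of all genes, 44.0 to 49.9% were marked for H3K27ac in Fed lists and 42.9 to 50.7% in Fast lists. For H3K9ac, 1 to 4 of the 10 immune markers were marked in Fed lists and 2 to 5 in Fast lists. Ptprc was in 0 H3K9ac lists, and Cd8a and Cd3e were in 1 Fast and 1 Fed list each. Itgam was in 1 Fast and 0 Fed H3K9ac lists, and Cd79a in 1 Fast and 2 Fed lists. The part of immune cells in the Ptgs1 values was not tested.

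For H3K9ac the separated locus was Il25. Covered length was 3426 and 4839 bp in Fed lists 1 and 2 and 6228 and 8163 bp in Fast lists without tetracycline. With tetracycline it was 3039 and 2466 bp in Fed and 5153 and 5281 bp in Fast. All 4 Fast lists exceeded all 4 Fed lists, as for 3.48% of all genes, and the log2 difference was 0.71 (0.68 without and 0.73 with tetracycline, exact permutation p = 0.0556, reached by 5.81% of all genes, Benjamini-Hochberg adjusted 0.869). Over all lists, 81.1% of this length lay at ends of the other genes in the window and 3.07% at ends of Il25. As a share of each list's total covered length the log2 difference was 0.34, and the lists overlapped. Of the 4 Fast lists, 3 are rich in 200 bp peaks; the other, Fast 2 without tetracycline, had the highest value, 8163 bp.

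The other 16 pairs of locus and mark overlapped between Fed and Fast lists. None of the 9 had all Fast lists below all Fed lists (0.128% of genes for H3K27ac and 0.251% for H3K9ac). The H3K27ac median over the 9 was 0.23, with 7 of 9 above 0, against 0.16 and 74.8% over all genes. For H3K9ac it was 0.27, with 8 of 9 above 0, against 0.23 and 75.4%. These shares are near the background, and as a share of each list's covered length the H3K27ac and H3K9ac medians became 0.01 and -0.01, with 5 and 4 genes above 0, while the medians of all genes became 0.0 and -0.03. With equal numbers of the highest-scoring peaks, the medians over the 9 were -0.03 and -0.46, with 4 and 2 genes above 0, and those of all genes 0.0 and -0.19. Gfi1b had the highest H3K9ac difference, 1.01, with 0, 2990, 1623 and 2591 bp in Fed lists and 5716, 1751, 6022 and 3829 bp in Fast lists (exact permutation p = 0.167, Benjamini-Hochberg adjusted 0.869). Fed and Fast overlapped through Fast 2 without tetracycline, at 1751 bp, and the difference was -0.12 with equal numbers of the highest-scoring peaks and -0.05 without the lists numbered 1. Among the 9 genes, Pou2f3 alone had an H3K9ac value below 0, -0.34 (exact permutation p = 0.444, Benjamini-Hochberg adjusted 0.884). It was -0.71 as a share of covered length, -1.33 with equal numbers of the highest-scoring peaks, -1.08 without the lists numbered 1 and 0.4 without those numbered 2. Trpm5, at 0.61, and Sucnr1, at 0.54, had the next H3K27ac differences after Ptgs1 (exact permutation p = 0.222 and 0.167, Benjamini-Hochberg adjusted 0.871 and 0.794). With equal numbers of the highest-scoring peaks they were 0.63 and 0.54, above the 0.26 of Ptgs1 (exact permutation p = 0.222 and 0.0556, not adjusted). None of the 9 genes then separated the lists. As a share of covered length they were 0.34 and 0.31, below the 1.16 of Ptgs1.

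**Figure D4:**
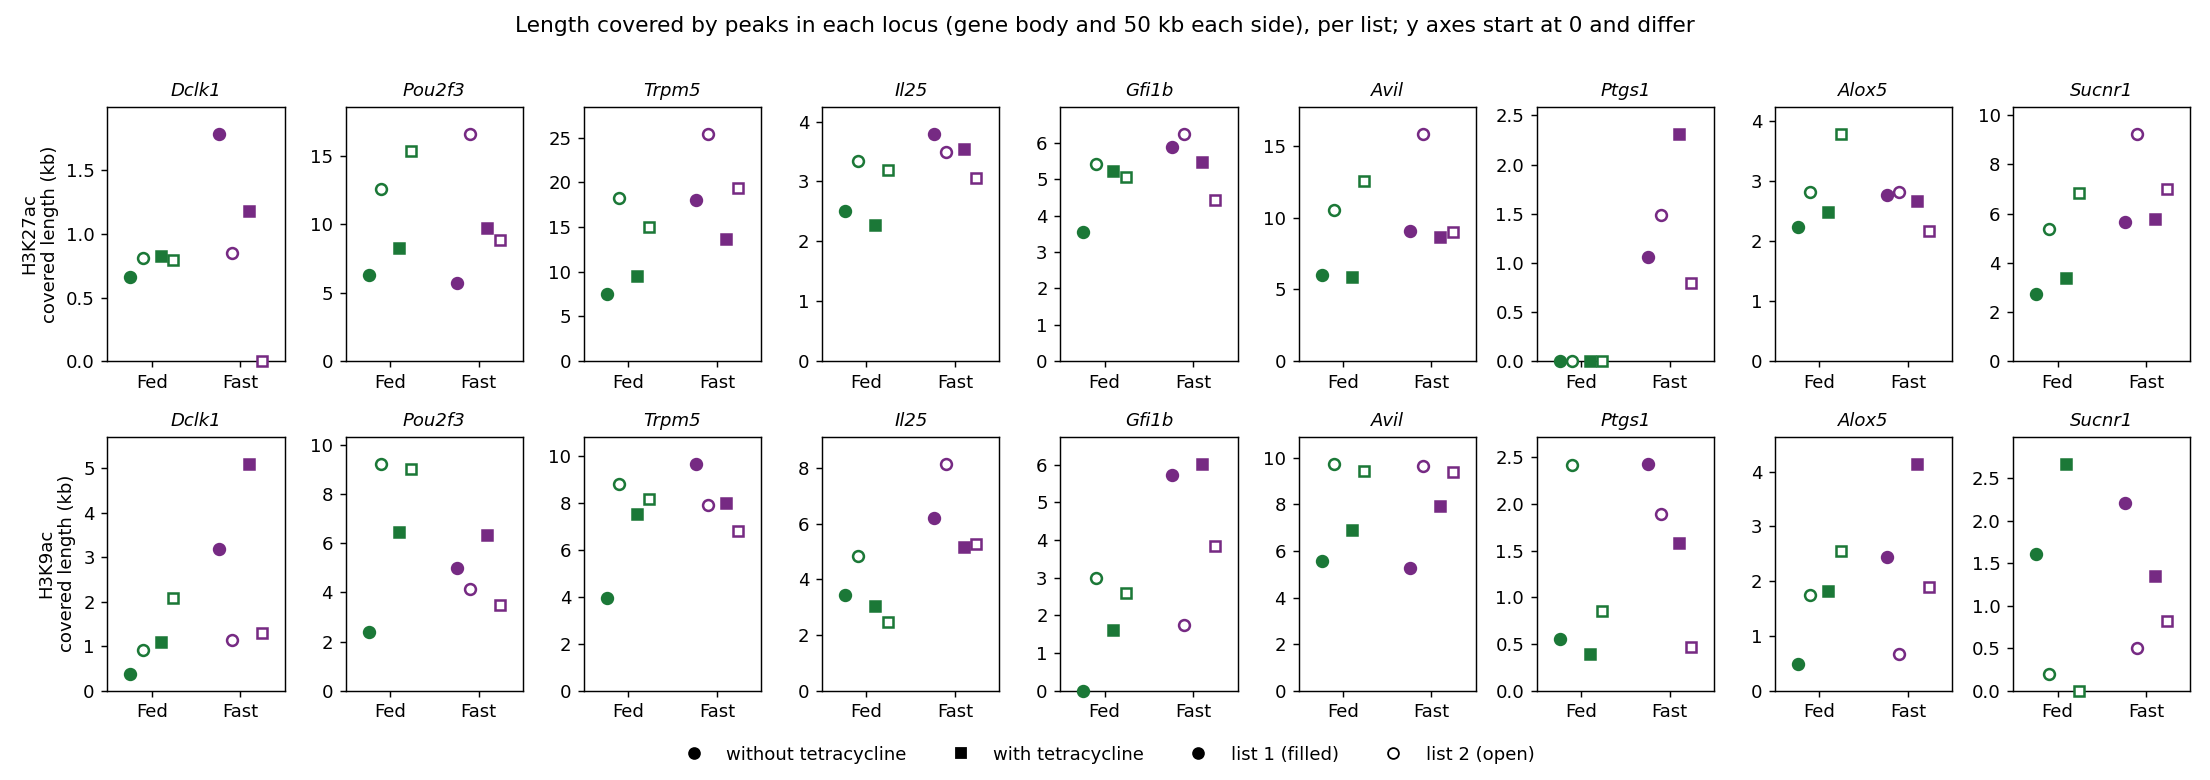
Length covered by peaks in each locus (kb, gene body and 50 kb each side) in every list, Fed and Fast, for H3K27ac (top) and H3K9ac (bottom); circles are without and squares with tetracycline, filled points list 1 and open points list 2, and y axes start at 0 but differ between panels. Fast and Fed lists are apart for Ptgs1 with H3K27ac and Il25 with H3K9ac and overlap elsewhere.

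Of the 247 H3K9ac regions and 99 H3K27ac regions in the 9 windows, 1 split the lists fully by feeding. In the Avil window, an H3K9ac region at an end of Tsfm, 8.89 kb beyond the high-coordinate end of Avil (chr10:127029886-127030970), was in 4 Fed and 0 Fast lists, with 2 of them without and 2 with tetracycline. H3K27ac was found there in 2 lists. Over the genome, 0.0145% of H3K9ac regions had peaks in 4 Fed and 0 Fast lists, and 0.0837% of H3K27ac regions did. The reverse, 4 Fast and 0 Fed lists, was met by no region of either mark in the 9 windows, and by 0.4% of H3K27ac and 0.0189% of H3K9ac regions over the genome.

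Tetracycline was compared within each feeding state. No tuft cell gene had all 4 lists with tetracycline above or below all 4 without, as 0.128% and 1.22% of all genes did for H3K27ac and 0.238% and 0.142% for H3K9ac. The median log2 difference, with over without tetracycline, was -0.03 over the 9 genes and -0.08 over all genes for H3K27ac, and 0.17 and 0.06 for H3K9ac. No tuft cell gene was marked at its ends in all 4 lists with tetracycline and none without (0.00457% of genes for H3K27ac, 0.0457% for H3K9ac), nor the reverse (0.0959% and 0.0411%). Il25 gave the lowest exact permutation p for H3K9ac, 0.0556 (reached by 1.1% of genes, Benjamini-Hochberg adjusted 1.0), with a log2 difference of -0.42. For H3K27ac no tuft cell gene reached that value, as 3.22% of genes did, and the lowest was 0.444. Within feeding states the H3K9ac covered length of Il25 was lower with tetracycline, at 3039 and 2466 against 3426 and 4839 bp in Fed. In Fast it was 5153 and 5281 against 6228 and 8163 bp. The fasting difference with tetracycline was also set against that without it, per gene over the 18 gene and mark pairs. Feeding labels were permuted within each tetracycline state, which assumes no fasting difference in either state. Exact permutation p ran from 0.167 to 1.0, all 1.0 after Benjamini-Hochberg adjustment. Because of that assumption, these values cannot say whether the fasting difference changed with tetracycline.

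The wider set of 32 genes known from tuft cell function held many marked genes. Between 12 and 18 of 32 were marked per H3K27ac list and 10 to 17 per H3K9ac list, or 37.5 to 56.2% and 31.2 to 53.1%, within or near the range of all genes. The list shares Vil1 and Krt18 with the epithelial markers. Genes marked in all 8 H3K27ac lists were Itpr3, the calcium channel downstream of the taste-type cascade, the cytokine receptor genes Il17rb, Il4ra and Il13ra1, Ptpn6, Spib, Krt18, Cd24a and Vil1. Of the receptors, Il17rb binds interleukin-25, and Il4ra with Il13ra1 forms the receptor for interleukin-13. Genes marked in no H3K27ac list were 12, among them the G-protein subunit genes Gnat3 and Gng13, the taste receptor gene Tas1r3, Rgs13, the acetylcholine synthesis gene Chat and Alox5ap, the partner of 5-lipoxygenase. Of all genes, 33.6% were marked in all 8 H3K27ac lists and 39.4% in none, beside 9 and 12 of these 32. Gnat3, Rgs13, Ffar3, Cysltr1 and Bmx were marked in none of the 16 lists, a state shared by 22.4% of all genes. Of the leukotriene and prostaglandin genes, Ltc4s was marked in all 8 H3K9ac lists, Pla2g4a in 3, Alox5ap and Hpgds in 2 each and Cysltr1 in 0.

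Genes of other secretory lineages, the mucus-making goblet cells and the hormone-making enteroendocrine cells, were compared by count, with no test. Of 7 goblet cell genes, 2 to 6 were marked per H3K27ac list, with Fcgbp and Agr2 in all 8. Of 9 enteroendocrine genes, 2 to 5 were marked, with Sct in all 8. The tuft cell genes had 0 to 1 of 9. For H3K9ac the ranges were 1 to 5 of 7, 1 to 6 of 9 and 0 to 3 of 9. Mast cell, neuronal and stromal lists were marked at 0 to 2 of 6, 0 to 1 of 6 and 0 to 1 of 8 genes for H3K27ac. For H3K9ac these ranges were 0 to 3, 0 to 2 and 0 to 4. The H3K9ac mean per list was higher in Fast than in Fed for mast cell genes (2.0 and 0.75), stromal genes (1.5 and 0.25), immune genes (3.25 and 2.0), neuronal genes (1.25 and 1.0), enteroendocrine genes (3.25 and 2.5) and the tuft cell genes (1.75 and 0.75), and lower for goblet genes (2.0 and 3.0). For H3K27ac the direction was reversed for goblet genes (3.75 in Fast and 2.5 in Fed). It was also reversed for enteroendocrine genes (3.5 and 4.0) and neuronal genes (0.0 and 0.25). Higher again in Fast were mast cell (0.5 and 0.0), stromal (0.75 and 0.5), immune (5.5 and 3.75) and tuft cell genes (0.75 and 0.0). The H3K9ac counts differed by list number. In both Fast groups list 1 had more marked than list 2 for mast cell, stromal, immune, neuronal and enteroendocrine genes. For the tuft cell genes, Fast lists 1 and 2 had 3 and 1 marked without tetracycline but 1 and 2 with it. For goblet genes they had 2 and 3 without tetracycline and 2 and 1 with it. In Fed without tetracycline list 2 had more for each, and with it neither list did throughout. Of all genes, 50.3% and 43.3% were marked in Fast and 41.1% and 51.7% in Fed without tetracycline. With it, the shares were 53.2% and 43.1% in Fast and 43.1% and 49.5% in Fed. The part of other cell types in the tuft cell values was not tested.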

How the data were processed

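CUT&Tag for H3K27ac and H3K9ac was measured in 8 samples, each with 2 peak lists, numbered 1 and 2 in the deposited names. The authors' deposited lists give positions and a score of at least 50 per peak, in no stated unit, used here only to rank peaks within a list. Per the submitters' processing notes, the build was mm10 and FastQC, Bowtie and SAMtools were used; the peak caller's settings and the use of IgG are not given in the sources used here. Names of the lists describe downsampling, so a peak's absence may reflect depth, and no interval that needs depth is given.

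Peaks on chromosomes 1 to 19, X and Y were counted at ends, bodies and flanks of RefSeq genes, and covered length was compared as log2(bp + 1 kb). Feeding labels were permuted within tetracycline state (36 arrangements, two-sided, smallest p 0.0556, so no test could pass 0.05), with Benjamini-Hochberg adjustment over all 21887 genes; tetracycline was treated likewise. Of all genes, 0 passed 0.05 after adjustment in any of these; for fasting, 8.77% (H3K27ac) and 5.81% (H3K9ac) of genes reached the smallest p. The counting was tested on simulated data. All 9 genes are named. Of the other lists, up to 4 genes per mark with the largest difference in lists between Fast and Fed are described singly, as are, per gene, the H3K27ac region within 10 kb found in most lists and regions in all lists of 1 feeding state; the other regions were chosen after their values were seen. 1 marker gene is not reported here. The genes and lists were chosen with earlier results of these data known. Python 3.11.15, numpy 2.4.6, pandas 2.3.3 and matplotlib 3.10.9 were used.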

Additional observations from a re-analysis of the deposited data

How the results depend on the processing

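The 2 lists of a sample may be repeats, depth is unknown, and the RefSeq table gives no strand, so gene ends stand in for starts. Keeping peaks above the median score, keeping equal numbers of the highest-scoring peaks per list, or using start sites in place of ends lowered the mean Fast minus Fed number of tuft cell genes marked for H3K27ac from 0.75 to 0.25 each time. The H3K27ac mean number per list was 1.25 with a window of 2.5 kb, where Trpm5 is included in every list, and the difference with minus without tetracycline was -0.25 with start sites (0.25 with ends). The H3K9ac mean number was 0.0 with equal numbers of peaks. For H3K9ac, Fast minus Fed was 1.0 in the main setting and 1.5 with the window of 2.5 kb. It was 0.0 with peaks above the median score, equal numbers of peaks, or peaks at least 500 bp wide. With start sites, known for 7 of the 9 genes, it was 1.75, at a mean number of 0.88 per list. Genes with all Fast lists above all Fed lists numbered 0 for H3K27ac with equal numbers of peaks and with no flank, and 0 for H3K9ac with peaks above the median score, equal numbers of peaks, peaks at least 500 bp wide, a flank of 20 kb, no flank, and the share of covered length. With peaks above the median score the H3K27ac number stayed 1, but the gene was Sucnr1 (4.32% of all genes). With the share of covered length, 1 gene (Alox5) had all Fast lists below for H3K27ac, as 4.98% of all genes did. Leaving out the lists numbered 1 or 2 gave 3 to 8 genes above for H3K27ac and 2 to 6 for H3K9ac, and 0 to 2 below for H3K9ac. Of all genes, 53.0% (H3K27ac) and 70.4% (H3K9ac) were above without the lists numbered 2. Without those numbered 1, 12.0% were above and 10.5% below for H3K27ac, and 6.36% above and 36.6% below for H3K9ac, so the H3K9ac direction over all genes reversed. The mean number per list was 0.25 to 0.5 for H3K27ac and 1.0 to 1.5 for H3K9ac, Fast minus Fed 0.5 to 1.0 and 0.0 to 2.0, and with minus without tetracycline 0.0 to 0.5 and -1.0 to 0.0. The cause of these changes was not tested. Leaving out the lists rich in 200 bp peaks was chosen after seeing the data. No paired analysis was possible because each group holds 1 sample and list numbers are not given in the labels.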

Other observations

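Among genes of other cell types, those with the largest difference between Fast and Fed lists were described by count. For H3K27ac, the T cell gene Cd3e was marked in 2 Fast and 4 Fed lists and Cd8a in 4 Fast and 2 Fed lists. Fyb, an adaptor in the tuft pathway list that is also expressed by T cells, was marked in 0 Fast and 2 Fed lists. For H3K9ac it was marked in 2 Fast and 1 Fed lists. Gnb3, of the same pathway list, went the other way for H3K27ac, with 2 Fast and 0 Fed lists. It was named after its values were seen. For H3K9ac, the goblet cell gene Agr2 was marked in 4 Fast and 1 Fed lists and the enteroendocrine hormone gene Cck in 3 Fast and 1 Fed lists. Other genes of these lists went the other way for H3K9ac: Tff3 and Zg16 were marked in 1 Fast and 3 Fed lists each, Spdef in 0 Fast and 2 Fed, Clca1 in 0 Fast and 1 Fed, and the hormone gene Gip in 1 Fast and 3 Fed; these were chosen after their values were seen. The neuronal genes Rbfox3 and Tubb3 went in opposite directions, with 0 Fast and 3 Fed lists for Rbfox3 and 3 Fast and 0 Fed lists for Tubb3.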
